A study of Homo sapiens with 6 samples.

Results

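The transcription factors described here are 10 genes that specify the neural crest, the SOX family left out: the AP-2 factors TFAP2A, TFAP2B, TFAP2C and TFAP2E, and PAX3, FOXD3, MSX1, MSX2, ETS1 and LMO4. They were found by gene name in the deposited tables, where each of the 10 names matched 1 of 57914 rows. RNA had been sequenced from A375, an established human melanoma cell line grown in high-glucose DMEM with serum. The cells were stained with Aldefluor, a substrate that turns fluorescent where aldehyde dehydrogenases (ALDH) process it, and a cell sorter took the brightest 5% (ALDH_High) and the dimmest 5% (ALDH_Low). No other treatment is named, and each group holds 3 libraries. Both groups are tails of 1 cell line, so they stand for that line and not for tumours. The labels do not say whether replicates came from separate cultures, so p-values measure the spread between these libraries, which may be technical.

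The neural crest is a migratory embryonic cell population that arises at the border of the neural plate and gives rise to melanocytes, peripheral neurons and glia, and much of the facial skeleton. Its fate is set in steps: signals at the border switch on factors such as AP-2, PAX3 and MSX, and these in turn bring in crest specifiers such as FOXD3, ETS1 and the SOX factors. In the melanocyte lineage, PAX3 and AP-2 act alongside SOX10 and MITF, while FOXD3 is known for holding crest cells in an early, undifferentiated state. The AP-2 proteins bind DNA as dimers and can pair with one another.

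Promoter windows of 300 bases, 250 before and 50 after the start, were found in RefSeq (GRCh38.p14) for 8 of the 10 genes, with a second start for TFAP2A and for LMO4; TFAP2C and ETS1 had no entry. The stretches before the first annotated start of the 2 genes with the largest rise and of the gene with the largest fall are shown, because their base composition differs. They are written 5′ to 3′ on the plus strand, with capitals at each CG dinucleotide.
TFAP2B, chr6:50818621-50818722: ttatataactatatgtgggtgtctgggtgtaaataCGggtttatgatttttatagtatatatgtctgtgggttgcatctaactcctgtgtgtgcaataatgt
FOXD3, chr1:63322317-63322566: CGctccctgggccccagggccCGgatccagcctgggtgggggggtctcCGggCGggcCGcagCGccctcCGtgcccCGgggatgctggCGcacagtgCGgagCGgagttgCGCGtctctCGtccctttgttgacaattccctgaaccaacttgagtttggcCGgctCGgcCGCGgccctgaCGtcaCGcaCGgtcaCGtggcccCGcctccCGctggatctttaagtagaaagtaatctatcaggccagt
MSX1, chr4:4859415-4859664: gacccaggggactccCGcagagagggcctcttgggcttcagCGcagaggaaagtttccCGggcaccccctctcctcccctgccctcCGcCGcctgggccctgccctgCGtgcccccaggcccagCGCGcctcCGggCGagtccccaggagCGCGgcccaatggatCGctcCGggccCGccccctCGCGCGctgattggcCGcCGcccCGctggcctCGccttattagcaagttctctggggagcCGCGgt
The 102 bases of TFAP2B hold 1 CG and are 34.3% G or C, whereas the 250 bases of FOXD3 hold 24 CG at 67.6% and the 250 bases of MSX1 hold 24 CG at 74%. Over the full window, TFAP2B has 5 CG, FOXD3 29 and MSX1 31, beside a median of 14 over 35116 windows of the same length. Of all windows, 29.6% held fewer CG than that of TFAP2B and 75.8% fewer than that of FOXD3. Both genes were higher in ALDH_High, so the 2 largest rises were of genes whose windows differ in CG content. Counts per gene do not show which start was used.

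Short motifs were searched on both strands of the 10 full windows. The palindromic AP-2 motif GCCNNNGGC was in 0 of the 10, while 23.2% of all windows hold it. The E-box CANNTG was in 6 of them and in 68.7% of all windows. One of its forms, CACGTG, was in FOXD3 alone (7.26% of all windows), and another, CAGCTG, was in the TFAP2E window and in 1 of the TFAP2A windows (17.9% of all). A SOX-type motif, ACAAAG or ACAATG, was in the FOXD3 window and in 1 of the LMO4 windows (24.5% of all). These matches describe letters in the windows.

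All 10 factors had enough counts to be tested. At an adjusted p below 0.05, 4 were higher in ALDH_High (TFAP2B, FOXD3, TFAP2E and TFAP2C) and 2 were lower (MSX1 and TFAP2A), where 20.6% of all 17047 genes tested passed, 10.8% as higher and 9.83% as lower (edgeR quasi-likelihood test, Benjamini-Hochberg over all genes). The median log2 fold change of the 10 was -0.065, beside -0.013 for all genes tested, so rises and falls were on both sides of a median near 0. Levels are given as CPM, counts scaled to the size of the library, and a log2 fold change is ALDH_High over ALDH_Low. In CPM the groups did not overlap in 7 of the 10, compared with 37.8% of all genes tested. Of these, PAX3 overlapped in TPM. For each of those 7 the exact permutation p (two-sided) was 0.1, the smallest value that 3 against 3 libraries allow. The calls of TFAP2B, FOXD3, TFAP2C and MSX1 stood in each of the 6 fits that left out 1 library, while the call of TFAP2E was lost in all 6 and that of TFAP2A in 5, so these fits gave 3 higher and 1 or 2 lower.

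**Figure D1:**
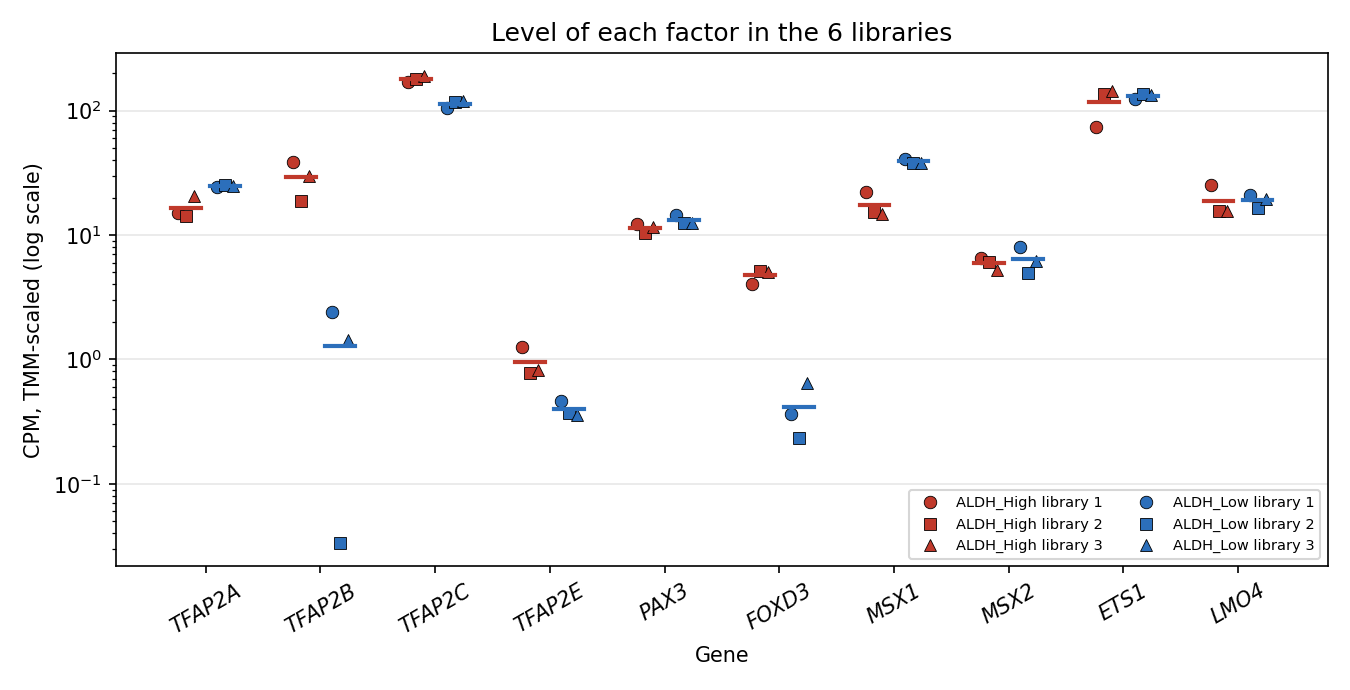
CPM of each factor (log axis) in the 3 ALDH_High libraries (red) and the 3 ALDH_Low libraries (blue), with a marker shape for each replicate number and a bar at the group mean. TFAP2B and FOXD3 show the widest gap between groups, MSX1 lies higher in all 3 ALDH_Low libraries, and ALDH_High library 1 stands below the other 5 for ETS1.

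TFAP2B, an AP-2 factor of the crest, kidney and sympathetic neurons (ENSG00000008196, chromosome 6, 50818723 to 50847619, plus strand), was near absent from one group and plainly expressed in the other. ALDH_High libraries 1, 2 and 3 held 38.6, 18.8 and 29.8 CPM of it, against 2.39, 0.0335 and 1.44 CPM for ALDH_Low libraries 1, 2 and 3. The lowest ALDH_High library was above every ALDH_Low library, and ALDH_Low library 2 held 1 count of the gene where ALDH_Low library 1 held 92. The group means were 29.1 ± 9.93 and 1.29 ± 1.18 CPM (SD, n = 3), a ratio of 22.6. The log2 fold change of TFAP2B was 4.45 (SE 0.64, 95% confidence interval 3.01 to 5.88, edgeR adjusted p 0.000900), the 52nd highest of all genes tested. Leaving out ALDH_Low library 1 gave 5.34, and leaving out ALDH_Low library 2 gave 3.90. In libraries from many cells, fewer cells carrying a transcript and less of it in each cell cannot be told apart.

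TFAP2C, an AP-2 factor of trophoblast, germ cells and breast epithelium as well as ectoderm, was the most abundant of the family (ENSG00000087510, chromosome 20, 56629306 to 56639283, plus strand). It had 168, 179 and 188 CPM in ALDH_High and 104, 118 and 119 CPM in ALDH_Low. The 2 groups were each tight and lay apart, with means of 178 ± 10.1 and 114 ± 8.53 CPM (SD, n = 3), a ratio of 1.57. For TFAP2C the log2 fold change was 0.65 (SE 0.11, 95% confidence interval 0.41 to 0.89, edgeR adjusted p 0.00208). Chromosome 20 as a whole was shifted towards ALDH_High, its 437 tested genes having a median of 0.25 on the log2 scale, and the interval of TFAP2C lay above that median. Chromosome 13 (median 0.33, 310 genes) and chromosome 18 (median -0.33, 262 genes), which hold none of the 10 factors, were shifted too. What these shifts come from was not tested, nor was the part of a chromosome-wide shift in the TFAP2C value.

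TFAP2A, the AP-2 factor needed early for the crest and later for melanocytes, moved the other way (ENSG00000137203, chromosome 6, 10393186 to 10419659, minus strand). It had 14.9, 14.2 and 20.4 CPM in ALDH_High and 24.3, 25.3 and 24.7 CPM in ALDH_Low. The ALDH_Low libraries were nearly equal, the ALDH_High libraries more spread with library 3 the highest, and the groups did not overlap. TFAP2A had a log2 fold change of -0.58 (SE 0.16, 95% confidence interval -0.94 to -0.23, edgeR adjusted p 0.0266). The ALDH_High mean was 16.5 ± 3.41 CPM and the ALDH_Low mean 24.7 ± 0.506 CPM (SD, n = 3). This call was lost without any 1 library other than ALDH_High library 3: adjusted p was 0.0549 and 0.124 without ALDH_High libraries 1 and 2, and 0.072, 0.0825 and 0.0764 without ALDH_Low libraries 1, 2 and 3, over a range of 0.00806 to 0.167 in 15 alternatives.

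TFAP2E, the least studied member in the crest (ENSG00000116819, chromosome 1, 35573314 to 35595328, plus strand), was close to the limit of detection. Its counts were 32, 27 and 28 in ALDH_High and 18, 11 and 10 in ALDH_Low, or 1.26, 0.782 and 0.821 CPM against 0.467, 0.368 and 0.359 CPM. All ALDH_High values were above all ALDH_Low values. Its log2 fold change was 1.23 (SE 0.37, 95% confidence interval 0.40 to 2.06, edgeR adjusted p 0.0412). Leaving out each library in turn kept the log2 fold change of TFAP2E between 1.01 and 1.38, but its edgeR adjusted p then lay between 0.0726 and 0.135, so the call was lost each time. TFAP2D, the remaining AP-2 gene, had 0 counts in all 6 libraries.

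**Figure D2:**
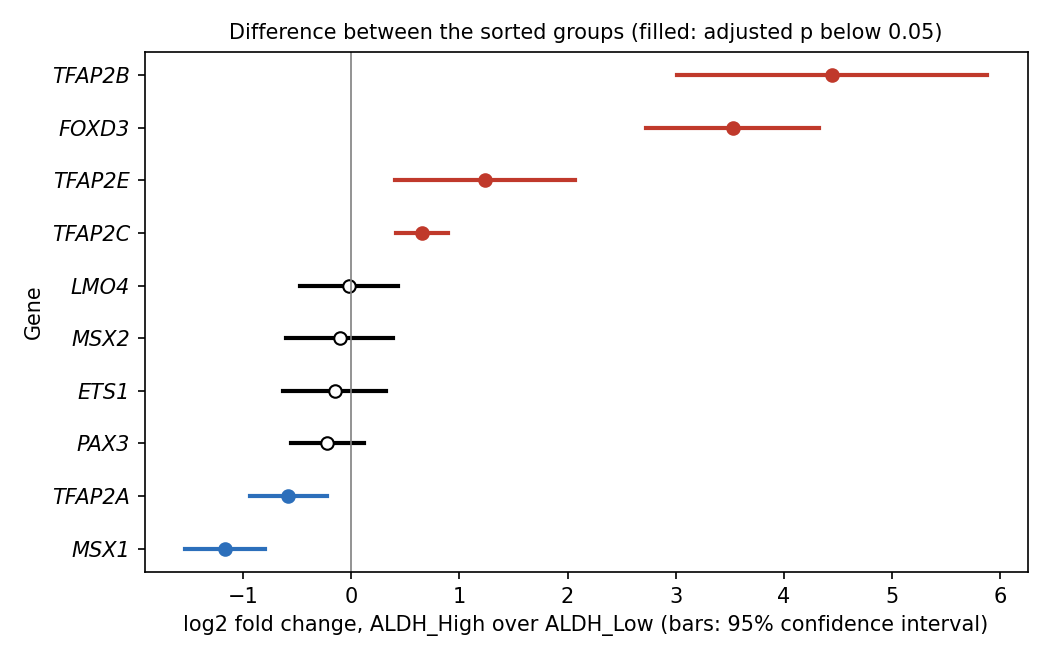
Log2 fold change of each factor with its 95% confidence interval, filled where the adjusted p was below 0.05 (red higher, blue lower in ALDH_High). The intervals of TFAP2B and FOXD3 start at 3.01 and 2.73, and those of LMO4, MSX2, ETS1 and PAX3 include 0.

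Within the AP-2 family the balance between members differed between groups. On the TPM scale, which is corrected for transcript length so that genes can be compared, the 4 members summed to 114, 125 and 143 TPM in ALDH_High and 78.3, 86.5 and 82.2 TPM in ALDH_Low. TFAP2C made up most of the sum everywhere, with 83.0 ± 3.04% in ALDH_High and 78.8 ± 1.35% in ALDH_Low (SD, n = 3). TFAP2A took 9.05 ± 1.30% in ALDH_High and 20.4 ± 0.926% in ALDH_Low. TFAP2B took 10.1%, 4.93% and 7.03% in ALDH_High libraries 1, 2 and 3, and 0.960%, 0.00955% and 0.524% in ALDH_Low libraries 1, 2 and 3. In TPM, TFAP2B was thus at a level near that of TFAP2A in ALDH_High, 9.22 ± 2.73 against 11.6 ± 2.95 TPM. It was far below TFAP2A in ALDH_Low, 0.397 ± 0.373 against 16.8 ± 0.691 TPM. The nearness in ALDH_High depends on the gene lengths behind the TPM, which are not stated. In CPM, which is not corrected for length, ALDH_High held 29.1 ± 9.93 of TFAP2B and 16.5 ± 3.41 of TFAP2A. The TPM ratio of TFAP2C to TFAP2A was 9.49, 10.6 and 7.77 in ALDH_High and 3.61, 3.93 and 4.07 in ALDH_Low. The exact two-sided permutation p was 0.1, the smallest possible, for each of the 4 shares, for the sum and for this ratio, and it was also 0.1 after Benjamini-Hochberg adjustment over the 4 shares.

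**Figure D3:**
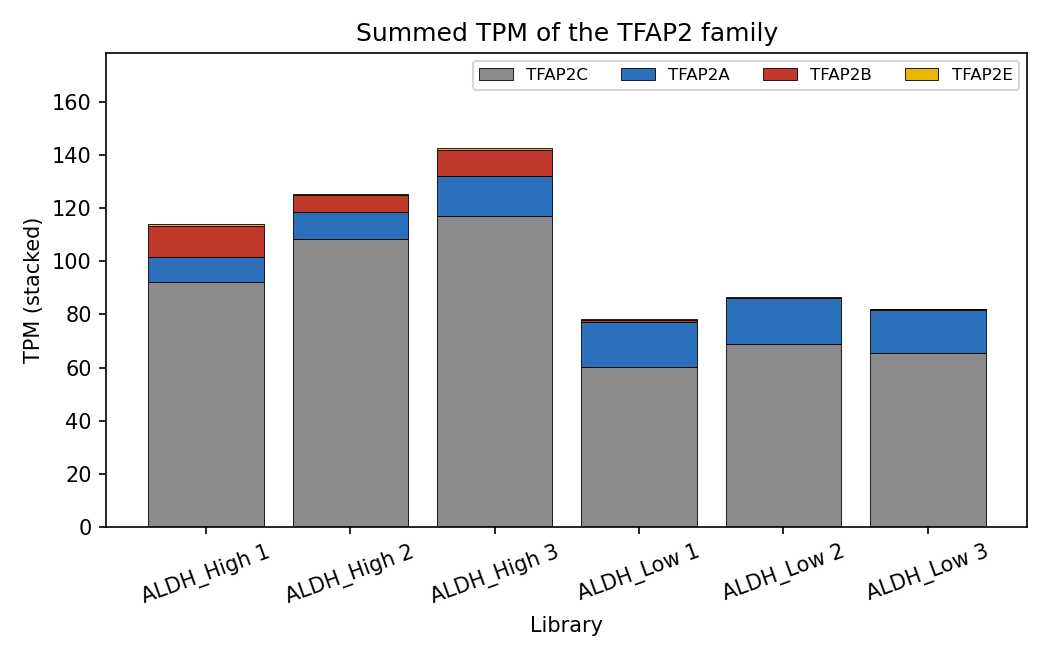
TPM of the 4 AP-2 genes stacked for each library. The red part, TFAP2B, is visible in the 3 ALDH_High libraries (6.18 to 11.5 TPM) and stays at or below 0.752 TPM in the 3 ALDH_Low libraries, where the blue part, TFAP2A, is thicker.

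FOXD3, a forkhead repressor that marks early crest (ENSG00000187140, chromosome 1, 63322567 to 63325128, plus strand), was 11.5 times higher in ALDH_High. It had 4.06, 5.15 and 5.07 CPM in ALDH_High and 0.363, 0.234 and 0.647 CPM in ALDH_Low, from 103 to 178 counts against 7 to 18. No ALDH_Low library came near the ALDH_High range, and the ALDH_High libraries were alike, at 4.76 ± 0.607 CPM (SD, n = 3). FOXD3 had a log2 fold change of 3.53 (SE 0.36, 95% confidence interval 2.73 to 4.33, edgeR adjusted p 0.000109), with 3.26 to 3.96 when 1 library was left out. FOXD3-AS1, annotated on the opposite strand and overlapping FOXD3, was also higher, with 39, 52 and 50 counts against 20, 6 and 18 (fitted log2 fold change of 1.71, SE 0.41, edgeR adjusted p 0.0147). The library kit keeps strand, but whether the counting used it is not given in the sources used here, so reads of FOXD3-AS1 and FOXD3 may not be told apart.

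MSX1 and MSX2, homeobox repressors of the neural plate border, differed from each other. MSX1 (ENSG00000163132, chromosome 4, 4859665 to 4863936, plus strand) had 22.1, 15.3 and 14.7 CPM in ALDH_High and 41.1, 37.8 and 38.2 CPM in ALDH_Low. Its groups did not overlap, and ALDH_High library 1 was the nearest to ALDH_Low. The log2 fold change of MSX1 was -1.17 (SE 0.17, 95% confidence interval -1.54 to -0.80, edgeR adjusted p 0.000789), with means of 17.4 ± 4.09 and 39.0 ± 1.78 CPM (SD, n = 3). MSX2 (ENSG00000120149, chromosome 5, 174724582 to 174730896) had 6.51, 6.11 and 5.28 CPM in ALDH_High and 8.07, 4.99 and 6.18 CPM in ALDH_Low, with the 2 ranges overlapping. Its log2 fold change was -0.11 (95% confidence interval -0.60 to 0.39, edgeR adjusted p 0.789), so a change of MSX2 as large as that of MSX1 lay outside the interval. The TPM ratio of MSX1 to MSX2 was 3.61, 2.66 and 2.96 in ALDH_High and 5.41, 8.04 and 6.54 in ALDH_Low, which do not overlap (exact two-sided permutation p = 0.1, the smallest possible).

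PAX3, the paired-box factor of the neural plate border and of melanocyte precursors (ENSG00000135903, chromosome 2, 222199887 to 222298998, minus strand), had 12.2, 10.3 and 11.6 CPM in ALDH_High and 14.5, 12.6 and 12.6 CPM in ALDH_Low. The values lay close together, and although the CPM ranges did not overlap, the highest ALDH_High library was only just below the lowest ALDH_Low library. In TPM the ranges overlapped, at 7.06 to 8.14 in ALDH_High and 7.84 to 9.56 in ALDH_Low. The log2 fold change of PAX3 was -0.22 (95% confidence interval -0.56 to 0.12, edgeR adjusted p 0.359) and did not pass the test.

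ETS1, an ETS-domain activator of crest delamination (ENSG00000134954, chromosome 11, 128458761 to 128587558, minus strand), had 73.1, 136 and 142 CPM in ALDH_High and 123, 137 and 132 CPM in ALDH_Low. ALDH_High library 1 stood alone below the other 5, which ran from 123 to 142 CPM. For ETS1 the log2 fold change was -0.16 (95% confidence interval -0.63 to 0.32, edgeR adjusted p 0.671), and 0.11 without ALDH_High library 1 (edgeR adjusted p 0.441, with 0.433 to 0.809 over 15 alternatives). That library also stood apart from ALDH_High libraries 2 and 3 over all genes, at 49.1 on the second principal component of log2 CPM, where the others were at -22.0 and -32.5.

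LMO4, a LIM-only adaptor that joins transcription factors without binding DNA itself (ENSG00000143013, chromosome 1, 87328880 to 87348923, plus strand), had 25.3, 15.5 and 15.5 CPM in ALDH_High and 20.9, 16.6 and 19.4 CPM in ALDH_Low. The ALDH_Low range lay within the ALDH_High range, and ALDH_High library 1 held the highest value. LMO4 had a log2 fold change of -0.021 (95% confidence interval -0.48 to 0.43, edgeR adjusted p 0.960), and its sign depended on which library was left out. Exact two-sided permutation tests gave p = 0.8 for MSX2, 0.9 for ETS1 and 1 for LMO4.

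By TPM, the order of the 10 factors in ALDH_High was TFAP2C (106 ± 12.6), ETS1 (43.6 ± 16.4), LMO4 (18.3 ± 4.19), MSX1 (17.6 ± 2.88), TFAP2A (11.6 ± 2.95), TFAP2B (9.22 ± 2.73), PAX3 (7.60 ± 0.538), MSX2 (5.72 ± 0.356), FOXD3 (4.72 ± 0.885) and TFAP2E (0.714 ± 0.150; mean TPM ± SD, n = 3). The libraries of LMO4 and MSX1 overlapped, as did those of TFAP2A and TFAP2B and of TFAP2B and PAX3, so these neighbours in the order were not separated by their spread. In ALDH_Low, TFAP2C (64.9 ± 4.19) and ETS1 (46.3 ± 2.78) were again highest, and MSX1 came next (38.5 ± 2.58), ahead of LMO4 (18.1 ± 2.13) and TFAP2A (16.8 ± 0.691), which overlapped. PAX3 (8.58 ± 0.885) and MSX2 (5.97 ± 1.50) followed. TFAP2B (0.397 ± 0.373), FOXD3 (0.385 ± 0.188) and TFAP2E (0.283 ± 0.0499 TPM) overlapped at the bottom.

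The authors' deposited table gives log2 coefficients of the high and low groups, each against a group named 1A3. In the authors' deposited table these coefficients differed, high minus low, by 4.52 for TFAP2B, 3.55 for FOXD3, 1.26 for TFAP2E, 0.67 for TFAP2C, -0.56 for TFAP2A and -1.15 for MSX1. Set beside the fitted values above, the largest gap for any of the 10 factors was 0.072, and 9 of the 10 had the same sign, LMO4 being the exception at 0.0018 in the authors' deposited table.

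Among 14043 named genes whose mean level reached 1 CPM, the closest patterns over the 6 libraries were sought by the root mean square difference between centred log2 CPM profiles. For FOXD3 the nearest 3 were AL121578.3 (0.16), HLA-DRA (0.21) and RNF150 (0.22). For TFAP2B they were LINC01419 (0.83), HLA-DQA1 (0.84) and HLA-DQB1 (0.89), which are larger distances than those of the other 5 factors. For TFAP2C they were JARID2 (0.029), ERCC6L (0.041) and RAB4A (0.041), for TFAP2E LIMD2 (0.036), ITPRID2 (0.071) and EMILIN1 (0.080), for MSX1 SQSTM1 (0.047), TRIM47 (0.061) and INKA1 (0.061), and for TFAP2A AC010186.2 (0.068), TMEM144 (0.077) and NFKBIA (0.087). Of the 3 nearest to TFAP2A, AC010186.2 and TMEM144 did not pass (edgeR adjusted p 0.244 and 0.0796). NFKBIA passed narrowly (edgeR adjusted p 0.0487) and lost its call in 9 of 15 alternatives. These are distances on the log2 scale, given as a description. They are not scaled to the size of a profile, and TFAP2B had the largest fold change of these factors. The nearest genes had fold changes like those of their factor, such as 0.63 to 0.67 on the log2 scale beside 0.65 for TFAP2C.

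Of the 12 nearest tested genes on either side of the 6 factors that passed, BMP7 passed in the same direction as its factor. C6orf141 and STK32B passed in the opposite direction. Among all genes tested, 10.8% passed as higher and 9.83% as lower, so these counts are given as a description. FOXD3-AS1, which overlaps FOXD3 and is not among the 12, passed in the same direction as FOXD3. Beside FOXD3, ATG4C at 457.1 kb had a log2 fold change of 0.10 and ALG6 at 42.4 kb one of 0.41, and neither passed (edgeR adjusted p 0.747 and 0.259). TFAP2B lies far from other tested genes: C6orf141 at 1256.8 kb was lower in ALDH_High (-1.55, edgeR adjusted p 0.000445), and MCM3 at 1416.4 kb had -0.22 (0.208). TFAP2E sits between NCDN at 6.0 kb (0.031, edgeR adjusted p 0.895) and PSMB2 at 4.2 kb (-0.27, 0.140). MSX1 had STX18-AS1 at 72.3 kb (-0.66, edgeR adjusted p 0.253) and STK32B at 187.5 kb, which went the other way (0.71, 0.00232). Beside TFAP2C, RTF2 at 109.9 kb had 0.17 (edgeR adjusted p 0.299), while BMP7, a bone morphogenetic protein at 529.5 kb, was higher (3.67, 0.00382) from a low level. TFAP2A overlaps TFAP2A-AS1 on the opposite strand (-0.68, edgeR adjusted p 0.269), with GCNT2 at 72.6 kb (-0.54, 0.125) and SLC35B3 at 1957.6 kb (0.27, 0.355).

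Beside the factors that did not pass, the neighbours of ETS1 included FLI1, another ETS factor at 99.0 kb, which was lower in ALDH_High (-1.35, edgeR adjusted p 0.000668), and KIRREL3 at 1455.3 kb (-0.56, 0.067). PAX3 had EPHA4 at 625.7 kb (0.75, edgeR adjusted p 0.0277, above 0.05 without ALDH_High library 2 or 3 or ALDH_Low library 2 or 3) and FARSB at 267.9 kb (-0.091, 0.635). MSX2 had CPEB4 at 762.6 kb (0.64, edgeR adjusted p 0.0564) and the long noncoding RNA AC113346.1 at 89.1 kb, lower in ALDH_High (-4.21, 0.000277). LMO4 had LINC01140 at 159.7 kb (-0.41, edgeR adjusted p 0.673) and PKN2 at 1335.3 kb (0.094, 0.723).

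Of 22 other factors of the neural plate border and crest, 18 could be tested, and 2 were higher and 5 lower, with a median log2 fold change of -0.030. The sign of that median was not stable: it ran from -0.070 to 0.088 when 1 library was left out, and was 0.19 without a low-count filter and 0.20 with DESeq2. The higher ones were TWIST1 (0.82, edgeR adjusted p 0.00901), a driver of mesenchymal crest, and ID4 (2.92, 0.0162), an inhibitor of basic helix-loop-helix factors that rests on 16 to 42 counts in ALDH_High and 1 to 8 in ALDH_Low. ID4 lost its call without ALDH_Low library 2 or 3 (edgeR adjusted p 0.0679 and 0.0740). The lower ones were the related inhibitors ID3 (-1.89, edgeR adjusted p 5.92e-05) and ID1 (-0.56, 0.0160), the orphan nuclear receptors NR2F1 (-2.06, 8.87e-05) and NR2F2 (-0.71, 0.00665), and MYC (-0.86, 0.00374). ID1 lost its call without ALDH_High library 2 or 3, or ALDH_Low library 1 or 3 (edgeR adjusted p 0.0658 to 0.0761). The border factors ZIC1, ZIC2, ZIC5 and GBX2 and the crest factors SNAI1 and SNAI2 had adjusted p from 0.146 to 0.951. DLX6 had 50, 11 and 20 counts against 11, 2 and 0 (edgeR adjusted p 0.0515), and MYCN had 0 counts in all 6 libraries.

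Of 10 proteins known to work with or against AP-2, all were tested, 2 were higher and 1 lower, with a median log2 fold change of 0.28 (0.14 without ALDH_High library 1). CITED1 and CITED2, coactivators that link AP-2 to the acetyltransferases EP300 and CREBBP, moved in opposite directions. CITED2 averaged 16.5 ± 2.98 CPM among the ALDH_High libraries against 73.9 ± 29.6 CPM (SD, n = 3; -2.17, edgeR adjusted p 0.000283), and CITED1 had 1.37 ± 0.792 and 0.365 ± 0.188 CPM (1.85, 0.0294). CITED4, also in the list, did not pass (0.39, edgeR adjusted p 0.405), nor did EP300 (0.37, 0.173) or CREBBP (0.56, 0.132). KCTD15, an inhibitor of AP-2 activity, was higher (0.42, edgeR adjusted p 0.0294), while its relative KCTD1 had -0.40 (0.120). The call of CITED1 was lost without ALDH_High library 1 or ALDH_Low library 2 or 3 (edgeR adjusted p 0.0767, 0.1046 and 0.1098; 0.000607 to 0.135 over 14 alternatives), and that of KCTD15 without ALDH_High library 2 or 3 or ALDH_Low library 1 or 3 (0.0569, 0.0813, 0.109 and 0.0913).

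Of 10 paralogs and LIM partners, 5 were tested, with 1 higher, 1 lower and a median of -0.30 (-0.16 without ALDH_Low library 2, and -0.070 with limma and no TPM filter). FOXD2, a forkhead relative of FOXD3, was higher as well (9.89 ± 3.48 against 1.99 ± 0.174 CPM, SD, n = 3; log2 fold change 2.31, edgeR adjusted p 0.000269), whereas FOXD1 was lower (31.6 ± 6.30 against 49.3 ± 1.51 CPM; -0.65, 0.0122). FOXD1 lost its call without ALDH_High library 2 or ALDH_Low library 3 (edgeR adjusted p 0.0536 and 0.0501). ETS2 (-0.30, edgeR adjusted p 0.140), LMO2 (-0.79, 0.151) and LDB1 (-0.12, 0.470), the cofactor that LMO4 binds, did not pass. PAX7, the paralog of PAX3, had at most 2 counts in any library.

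Genes reported as AP-2 targets moved on both sides: of 14, 12 were tested, 3 were higher and 2 lower, with a median of 0.35. That median was 0.19 without ALDH_High library 1, 0.43 without ALDH_High library 2 and 0.46 without ALDH_High library 3. It was 0.090 without a low-count filter, 0.10 with DESeq2 and 0.11 with limma and no TPM filter. The list does not record whether AP-2 raises or lowers each gene, so its median cannot be read as AP-2 activity. The higher ones were ERBB3, a neuregulin receptor of crest cells (275 ± 30.1 against 38.3 ± 12.6 CPM, SD, n = 3; 2.84, edgeR adjusted p 1.84e-05), IGF1R (1.09, 0.000564) and MCAM, a melanoma adhesion molecule (0.75, 0.00126). The lower ones were EGFR (16.1 ± 2.21 against 55.3 ± 11.2 CPM; -1.78, edgeR adjusted p 9.05e-05) and F2R, the thrombin receptor (-0.59, 0.0189). F2R lost its call without ALDH_High library 2 or ALDH_Low library 1 (edgeR adjusted p 0.0714 and 0.0913). KIT, whose loss with AP-2 is known from melanoma, had 0 or 1 count in every library, and CDH1 was too low to be tested.

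Of 6 reported PAX3 targets, 3 were tested and each passed. POU3F2, a neural POU factor also called BRN2, was higher (35.0 ± 8.30 against 3.46 ± 0.790 CPM, SD, n = 3; 3.34, edgeR adjusted p 1.22e-05), and the receptor MET (-1.27, 0.000338) and MITF (-0.92, 0.00667) were lower. DCT and TYRP1 were at 11 counts or fewer in every library, and RET had 2, 4 and 10 counts in ALDH_High and 0 in ALDH_Low. The counts for these lists describe them beside the 10.8% and 9.83% of all genes, and no list was tested as a set.

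**Figure D4:**
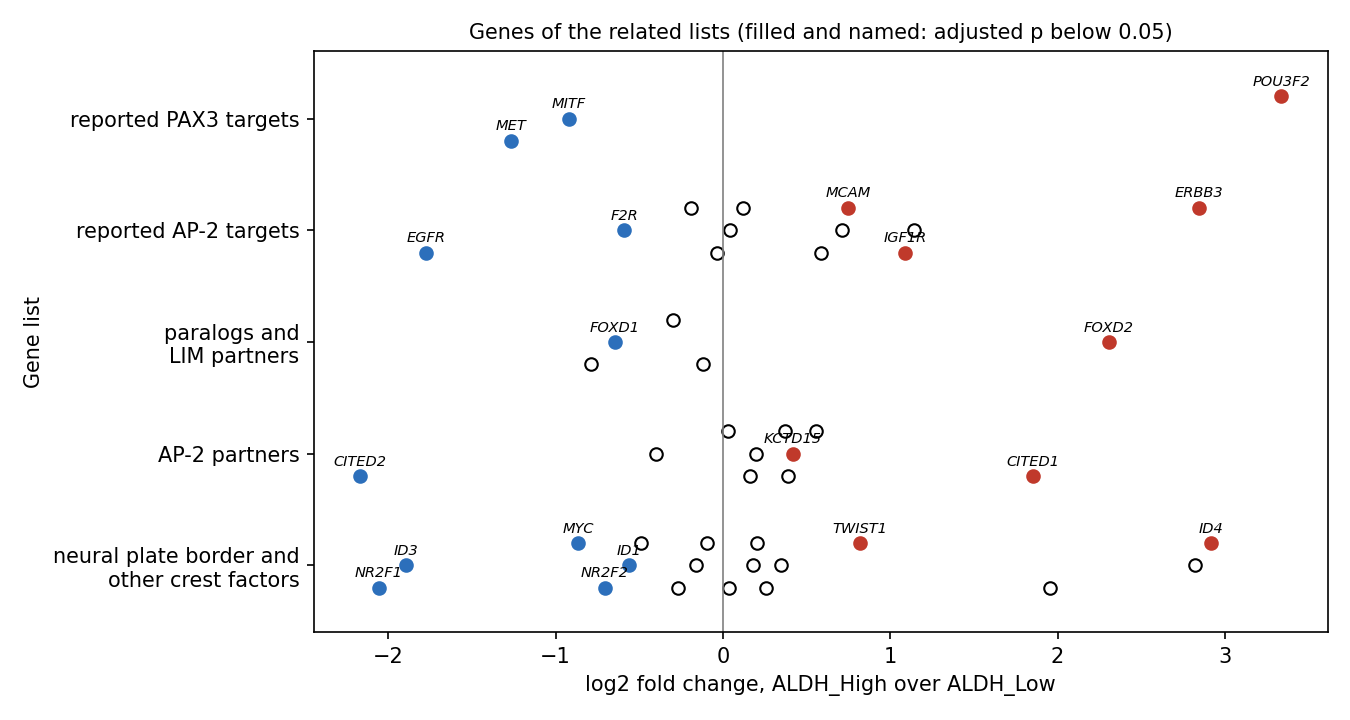
Log2 fold change of each tested gene in the 5 related lists; filled, named points had an adjusted p below 0.05 (red higher, blue lower in ALDH_High) and open points did not. Each list has points on both sides of 0, from -2.17 (CITED2) to 3.34 (POU3F2).

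Total counts lay between 26692868 and 37830603 per library, and replicates of 1 group always differed by more than sampling noise (chi-square per degree of freedom of 12.1 or more). Of 12 markers of the line, 9 were tested, and 6 were higher and 1 lower in ALDH_High, so these markers moved with the sort as well. S100A1 averaged 29.9 ± 3.40 against 1.14 ± 0.971 CPM (SD, n = 3; log2 fold change 4.75, edgeR adjusted p 4.71e-05) and S100B 32.2 ± 4.10 against 1.68 ± 1.33 CPM (4.28, 9.03e-05). SOX10 (1.79), CSPG4 (0.88), MCAM (0.75) and PRAME (0.47) were also higher and MITF lower, and VIM did not pass (0.099, edgeR adjusted p 0.618). The list summed to 5251 to 6778 CPM in ALDH_High and 4392 to 4598 CPM in ALDH_Low. Among the pigment markers, MLANA, TYR and DCT were at 10 counts or fewer in every library, and PMEL had 5 to 19 counts and did not pass (edgeR adjusted p 0.747). Of the 8 white blood cell markers, PTPRC had 1 to 4 counts and CD3E at most 2, and the list summed to 14.2 to 29.9 CPM in ALDH_High and 58.5 to 69.9 CPM in ALDH_Low, most of it CD68, which other cells also express. The 3 tested genes of that list each passed, CD68 (-1.86) and CD14 (-1.96, edgeR adjusted p 0.0142) as lower and LYZ (1.65, 0.0240) as higher. Single libraries decided some of these marker calls: LYZ and PRAME lost theirs without any 1 of the ALDH_Low libraries, CD14 without ALDH_High library 2 or ALDH_Low library 2 or 3, and CSPG4 without ALDH_Low library 3 (edgeR adjusted p 0.0548 to 0.1135). The 5 fibroblast markers summed to 11.7 to 13.2 and 8.30 to 11.5 CPM, the 5 keratinocyte markers to 33.4 to 52.5 and 40.4 to 49.8 CPM with KRT10 foremost, and the 3 endothelial markers to at most 2.28 CPM. Among the keratinocyte markers, KRT5 was lower, with 2, 6 and 5 counts in ALDH_High and 108, 32 and 36 in ALDH_Low (-3.63, edgeR adjusted p 0.000898). Of 10 markers of G2 and M phase, 5 were higher (CDK1, UBE2C, TOP2A, AURKA and MKI67) and 0 lower, beside 10.8% and 9.83% of all genes. CCNB1, PLK1, BUB1, CDC20 and CENPF did not pass (edgeR adjusted p 0.137 to 0.653). The list summed to 3650 to 3947 CPM in ALDH_High and 2333 to 2767 CPM in ALDH_Low. The part of cell cycle position, and of the shifts in these marker lists, in the levels of the 10 factors was not tested.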

How the data were processed

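RNA-seq of 3 ALDH_High and 3 ALDH_Low libraries of A375 cells was analysed. Per the labels, libraries were stranded mRNA (TruSeq). The submitters' processing notes name FastQC 0.11.3, STAR 2.5.1b, HTSeq 0.6.1, DESeq2 and GRCh38 without roles; the annotation is not given in the sources used here. The authors deposited whole-number counts that read as rounded estimated counts, since 133 to 177 genes per library have a count of 0 beside a TPM above 0. The authors also deposited TPM values, whose gene lengths are not stated, and log2 coefficients from a DESeq2 model against a group named 1A3, whose other groups are not analysed here. Rows with an identifier but no symbol (261) held 0.0213% to 0.0267% of counts and stayed in.

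Counts were rounded, filtered with filterByExpr (17047 genes left), scaled with TMM and tested in edgeR 4.0.16 (glmQLFit, glmQLFTest) without the replicate number. SE is the log2 fold change over the square root of F; confidence intervals are for single genes, unadjusted. Alternatives used DESeq2 1.42.0 and limma 3.58.1 on log2(TPM + 1) and log2(TPM + 0.1). Positions come from GENCODE 44 on GRCh38 (99.1% of tested genes matched by identifier), promoter windows from RefSeq. Precision here covers counting error and library spread only.

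The factors and lists were chosen with earlier results of these data known. Named genes are all 10 factors; list genes past the threshold (at most 5 per list with the smallest p, except that all 7 border and crest factors are named); the leading markers; the 3 nearest patterns per factor past the threshold; and the nearest tested neighbours. Other genes were named after their values were seen. Deviations from the group mean correlated at 0.15, 0.076 and 0.108 between libraries that share a replicate number. Not all exceeded 0.1, so the main fit left the numbers out, which does not show that the libraries were unpaired. With the replicate block, 1947 genes were higher and 1801 lower, against 1838 and 1675 in the main fit.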

Additional observations from a re-analysis of the deposited data

How the results depend on the processing

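The directions and calls of TFAP2B, FOXD3, TFAP2C and MSX1 held under every alternative that tested them, with log2 fold changes of 2.87 to 5.34, 2.04 to 3.96, 0.60 to 0.71 and -1.36 to -1.05. With at least 10 counts in every library, 2 factors were higher, since TFAP2B and FOXD3 were then not tested. The 3 limma fits gave 1 lower factor each, because TFAP2A missed the threshold at -0.52 on log2(TPM + 1) with or without a TPM filter and -0.55 on log2(TPM + 0.1). TFAP2E missed it without a low-count filter (1.25), with DESeq2 (1.27) and on log2(TPM + 1) without a TPM filter (0.41). Across fits that left out a library there were 3 factors higher and 1 to 2 lower; log2 fold changes ran from -0.75 to -0.47 for TFAP2A, 1.01 to 1.38 for TFAP2E, -0.26 to 0.11 for MSX2, -0.30 to 0.11 for ETS1 and -0.28 to 0.12 for LMO4, the last 3 changing sign. LMO4 also changed sign with DESeq2 (0.00066). The share of TFAP2B was higher in ALDH_High by 6.84 percentage points of TPM, 5.48 to 8.04 without 1 library and 11.9 of summed CPM.

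Counts for related lists moved as follows. Higher border and crest factors numbered 5 without a filter, 1 with at least 10 counts, 4 with the replicate block and with DESeq2, 1 in each limma fit, and 1 to 4 without 1 library. Higher AP-2 partners numbered 1 with at least 10 counts, 1, 1 and 0 in limma, and 0 to 2 without 1 library; lower paralogs and LIM partners numbered 0 to 2. Higher AP-2 targets numbered 6 without a filter and 5 with the replicate block; lower ones numbered 1 in each limma fit and 1 to 2 without 1 library. Higher PAX3 targets numbered 2 without a filter, and lower ones 1 in limma without a TPM filter. Higher antisense neighbours numbered 0 with at least 10 counts, where FOXD3-AS1 was not tested. The cause was otherwise not tested. The replicate block changed no call of the 10 factors (4 higher, 2 lower). Among other named genes, leaving out a library gave -0.25 to 0.026 for KRT10, -0.061 to 0.11 for NCDN and -0.0083 to 0.22 for PKN2, and NCDN also changed sign with upper-quartile factors (-0.018). TFAP2E rests on 10 to 32 counts per library, so its value carries a large counting error.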
